A study of Mus musculus with 18 samples.

Results

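The cyclin D, CDK4/6, RB and INK4 genes form the switch by which a cell leaves G1. D-type cyclins bind and activate the kinases CDK4 and CDK6, which phosphorylate RB and its relatives p107 and p130 (the pocket proteins). Phosphorylated pocket proteins release the E2F transcription factors, which turn on the genes for DNA synthesis, while the INK4 inhibitors p16INK4a and p15INK4b bind the kinases and hold the switch off. In lung adenocarcinoma driven by EGFR the pathway lies downstream of the growth signal, and Cdkn2a, which also encodes p19ARF in another reading frame, is a barrier to the expansion of mutant cells.

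The set held 10 genes of the 46603 genes in each table, taken by name for their place in this pathway. They were the D cyclins Ccnd1, Ccnd2 and Ccnd3, the kinases Cdk4 and Cdk6, the pocket protein genes Rb1, Rbl1 (p107) and Rbl2 (p130), and the INK4 genes Cdkn2a and Cdkn2b. All 10 passed the filter on low counts in each of the 6 comparisons, and the fewest expected counts of any member in any library were 137, for Cdk6. On GRCm38 the INK4 genes lie side by side on the minus strand of chromosome 4, Cdkn2a at chr4:89274471-89294653 and Cdkn2b at chr4:89306299-89311039. The other 8 members lie on 8 other chromosomes.

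RNA was sequenced from 18 mouse cultures. The sorted cells and the autochthonous tumour came from mice with human EGFR knocked into one Col1a1 locus. The insert carried the T790M and L858R changes, a lox-stop-lox cassette and the CAG promoter, which is active in most cell types. Organoids made up 10 of the libraries and were grown in Matrigel with neonatal lung mesenchymal support cells, whose genotype was not given. They came from NGFR-negative (club) and NGFR-positive (basal) tracheal cells, Sca1-negative distal cells (AT2) and Sca1-positive distal cells, the bronchioalveolar stem cells (BASC). Each of these 4 sorts gave 1 culture treated with Ad-GFP, the control adenovirus in which the cassette stays closed, and 1 treated with Ad-Cre, which opens it. Those from the Sca1-positive sort were labelled mixed, and 2 more Ad-Cre cultures of that sort were picked by shape as alveolar and as bronchiolar BASC organoids. The other 8 libraries were tumoroids, tumour cells returned to the same 3D culture, of which 7 came from Ad-Cre organoids instilled through the trachea of nude mice (Foxn1 Nu/Nu, which lack T cells), 3 from AT2, 3 from mixed BASC and 1 from bronchiolar BASC organoids, and 1 autochthonous tumoroid came from a tumour that arose in place after Ad-Cre. Each organoid condition was thus 1 culture, and the Ad-GFP and Ad-Cre cultures of a population were aliquots of one sort. Mouse ages were given only as adult, for the autochthonous tumours, the labels do not say which tumoroids shared a host, and p-values measure the spread between these libraries, which may in part be technical.

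The tables totalled 27772660 to 97191624 expected counts in organoids and 15327265 to 23355938 in tumoroids. Organoids were sequenced on an Illumina HiSeq and tumoroids on a BGI DNBSEQ, so platform and transplantation cannot be told apart. The labels were checked against lineage markers. The surfactant gene Sftpc stood at 60435 to 61211 TPM (transcripts scaled by length and library) in the AT2 and alveolar BASC organoids and at 3.17 to 62.8 TPM in the tracheal ones. In tracheal organoids the basal keratin Krt5 stood at 1549 to 2063 TPM, in those labelled club as well, where the club secretoglobin Scgb1a1 stood at 7.03 to 18.4 TPM. Summed over 5 club markers, the cultures labelled club stood at 8022 and 8615 TPM and those labelled basal at 4417 and 5820 TPM. The alveolar organoids stood at 322 to 1576 TPM in this sum. Sums over 4 basal markers went against the labels, higher in cultures labelled club (3321 and 3609 TPM) than in those labelled basal (2733 and 3043 TPM). Summed TPM of 10 fibroblast markers ranged from 938 to 4031 in organoids and from 204 to 5046 in transplant tumoroids. Endothelial markers were near 0, at no more than 5.56 TPM summed over 8 genes.

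Of the members, 7 had promoter windows in the RefSeq table for GRCm38.p6, 250 bases before to 50 after each start, giving 9 windows with both starts of Cdkn2a and both of Ccnd3. A set of 4 windows is shown, those of the 3 members that were higher in transplant tumoroids, as described below. The windows of Ccnd3, Cdk6, Rbl2 and Cdkn2b, which differed between organoid lineages, are not shown. The first 3 are written with any E2F-type motif in capitals (TTTCCCGC, TTTCGCGC, TTTGCCGC or TTTGGCGC, either strand), and the fourth, Cdk4, with the E-box CACGTG in capitals, the site that MYC and related factors bind. The windows are Cdkn2a at the p16INK4a start (chr4:89282143-89282442, minus strand), Cdkn2a at the p19ARF start (chr4:89294570-89294869, minus strand), Rbl1 (chr2:157204485-157204784, minus strand) and Cdk4 (chr10:127063285-127063584, plus strand).
Cdkn2a p16INK4a start: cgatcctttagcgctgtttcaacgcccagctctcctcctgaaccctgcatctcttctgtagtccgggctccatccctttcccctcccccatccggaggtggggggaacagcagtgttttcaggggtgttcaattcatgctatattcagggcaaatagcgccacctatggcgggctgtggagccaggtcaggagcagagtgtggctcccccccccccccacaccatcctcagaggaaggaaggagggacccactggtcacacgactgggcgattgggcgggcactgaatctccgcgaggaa
Cdkn2a p19ARF start: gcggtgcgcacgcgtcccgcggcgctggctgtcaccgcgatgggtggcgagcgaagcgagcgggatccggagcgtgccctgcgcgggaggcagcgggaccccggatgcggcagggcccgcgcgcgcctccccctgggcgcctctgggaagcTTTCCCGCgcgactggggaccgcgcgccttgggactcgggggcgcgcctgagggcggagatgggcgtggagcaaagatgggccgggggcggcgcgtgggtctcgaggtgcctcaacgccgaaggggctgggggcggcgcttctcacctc
Rbl1: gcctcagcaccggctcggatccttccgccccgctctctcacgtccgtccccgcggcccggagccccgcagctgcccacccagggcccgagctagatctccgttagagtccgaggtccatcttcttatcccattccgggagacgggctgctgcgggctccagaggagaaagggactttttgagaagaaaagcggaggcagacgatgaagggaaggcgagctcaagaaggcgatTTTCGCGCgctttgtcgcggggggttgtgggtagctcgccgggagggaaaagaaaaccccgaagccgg
Cdk4: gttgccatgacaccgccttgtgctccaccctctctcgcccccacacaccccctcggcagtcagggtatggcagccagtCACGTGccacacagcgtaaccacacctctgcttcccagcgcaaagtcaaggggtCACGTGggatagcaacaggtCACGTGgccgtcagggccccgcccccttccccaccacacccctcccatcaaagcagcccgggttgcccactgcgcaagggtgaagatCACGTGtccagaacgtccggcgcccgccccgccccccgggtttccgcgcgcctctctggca
Of the 9 member windows only those of Rbl1 and of the p19ARF start held an E2F-type motif, against 2.26% of all 32851 windows in the table. The p16INK4a window held none of the 4 spellings. Cdk4 held 4 E-boxes and Cdk6 held 1, where 7.15% of all windows held at least 1 and 0.0244% held at least as many as Cdk4. A match of letters is a description of the window and not a mapped site.

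Levels between genes were compared in TPM, which is scaled by transcript length. In organoids Cdk4 was the highest member (mean 345 TPM over 10 libraries), followed by Ccnd1 (217 TPM), and Cdk6 was the lowest (11.4 TPM), next to Rbl1 (11.9 TPM). Cdk6 made up 3.27 to 4.33% of the summed Cdk4 and Cdk6 TPM in tracheal organoids and 1.27 to 1.31% in alveolar ones. The order changed in the 7 transplant tumoroids, where Cdkn2a moved from the sixth to the second place (mean 412 TPM) and Cdk4 stayed first (587 TPM). The organoid means cover all lineages and both viruses, on another platform, and TPM was not corrected for GC content. In AT2 tumoroid 1 Cdkn2a stood at 101 TPM, below the bronchiolar BASC organoid at 120 TPM. The plot of members by library gives all values as normalised CPM (expected counts scaled to library size), the scale used for one gene across libraries.

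**Figure D1:**
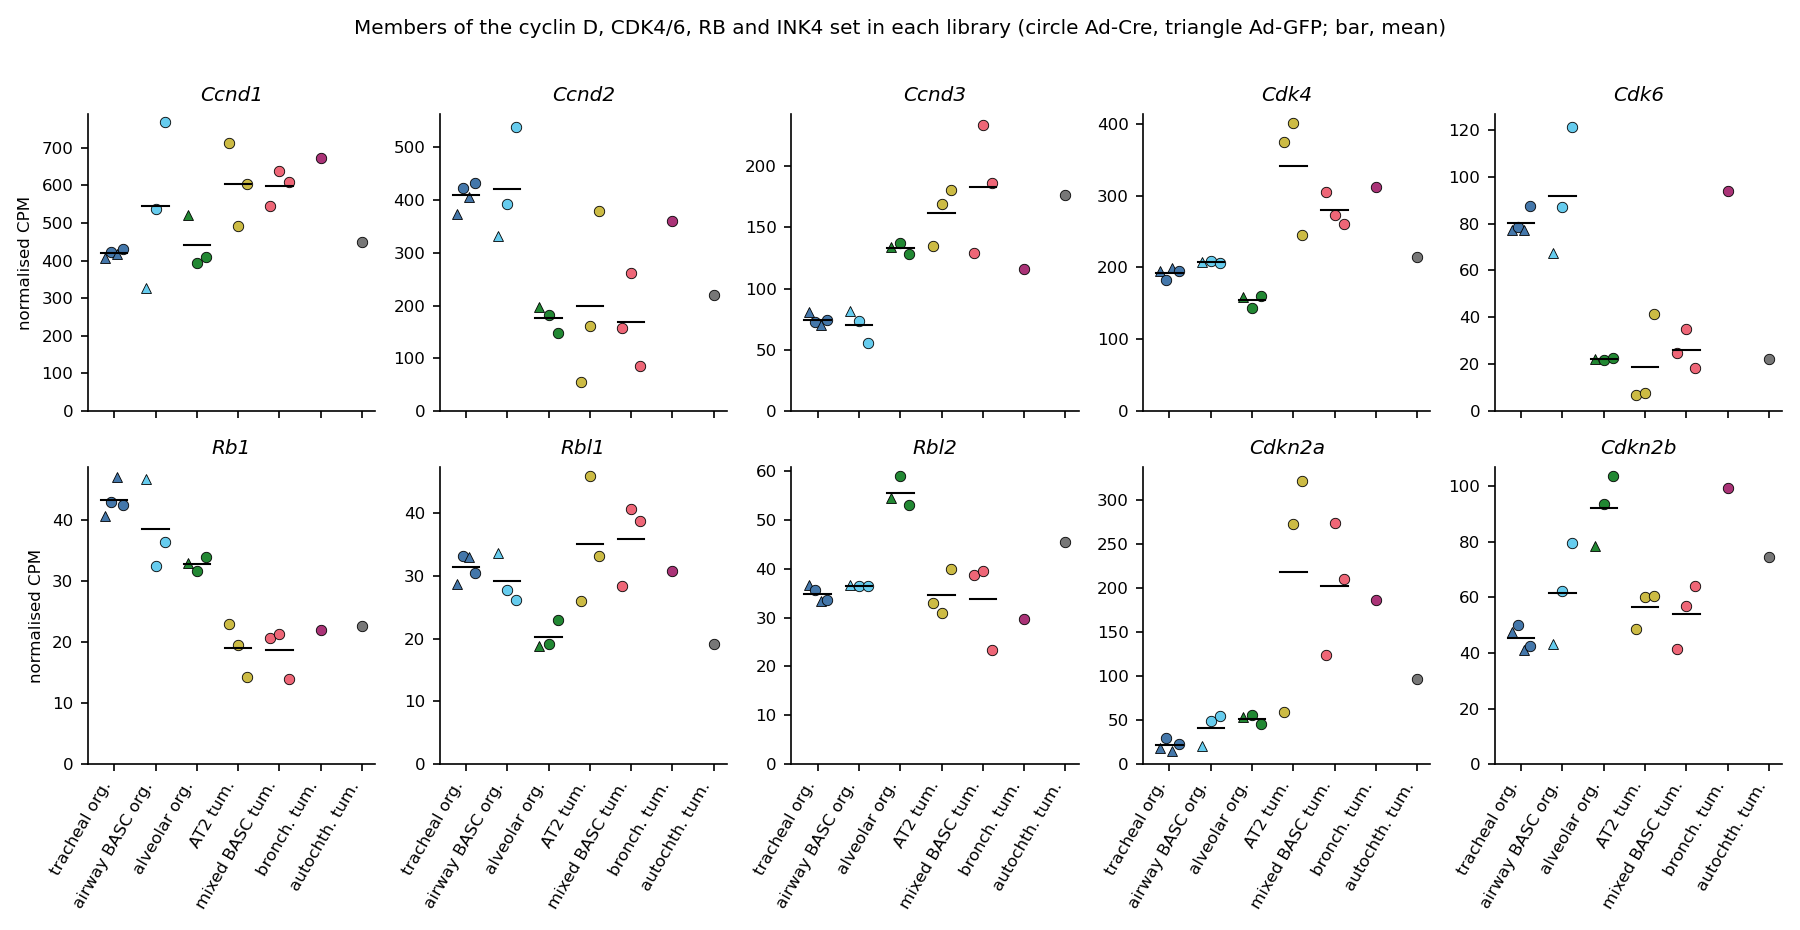
Normalised CPM (y axis from 0) of the 10 members in each of the 18 libraries, grouped on the x axis by lineage and stage (org., organoids; airway BASC, mixed and bronchiolar BASC organoids; tum., tumoroids). Circles are Ad-Cre and triangles Ad-GFP libraries, and black bars are group means. Cdk6, Ccnd2, Ccnd3, Rbl2, Cdk4 and Rbl1 separated alveolar from other organoids without overlap, while Cdkn2a and Cdk4 were highest in transplant tumoroids. The share of all genes separating in this way was not computed.

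Lineage was the first comparison, and asked whether organoids of alveolar type differed in these genes from tracheal ones. Alveolar organoids (AT2 Ad-GFP, AT2 Ad-Cre and alveolar BASC Ad-Cre) had less Cdk6, Ccnd2, Rbl1, Rb1 and Cdk4 than the 4 tracheal organoids, and more Cdkn2a, Cdkn2b, Ccnd3 and Rbl2. Of the 10 members, 4 were higher and 5 lower, by edgeR's quasi-likelihood test with Benjamini-Hochberg adjusted p below 0.05 over 19349 genes, where 28.8% of all genes tested were higher and 29.4% lower. Calls were thus frequent throughout the transcriptome, and the median log2 fold change was -0.09 over the members and -0.06 over all genes tested. In bulk RNA fewer cells of a type and less RNA per cell cannot be told apart, here or below. Fibroblast signal moved with the same contrast, since 9 of the 10 fibroblast markers were higher in alveolar organoids, with summed levels of 2193 to 4031 TPM against 948 to 1028 TPM. Its part in the members' differences was not tested.

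Among the D cyclins, which differ in tissue distribution but bind the same kinases, Ccnd2 and Ccnd3 went in opposite directions. Ccnd2 measured 197, 182 and 148 CPM in AT2 Ad-GFP, AT2 Ad-Cre and alveolar BASC organoids, against 374, 424, 406 and 433 CPM in club Ad-GFP, club Ad-Cre, basal Ad-GFP and basal Ad-Cre organoids. All 3 alveolar values lay below all 4 tracheal ones, a 2.27-fold lower level (log2 fold change -1.18 ± 0.17 SE, edgeR adjusted p = 0.000556). Ccnd3 measured 134, 138 and 128 CPM in the alveolar organoids and 81.2, 72.4, 70.5 and 74.1 CPM in the tracheal ones, again without overlap and 1.83-fold higher (log2 fold change 0.87 ± 0.13, edgeR adjusted p = 0.000527). Ccnd1, the cyclin most often induced by growth factor signals, overlapped between the groups at 393 to 521 and 406 to 431 CPM and did not pass the test (log2 fold change 0.11 ± 0.24, edgeR adjusted p = 0.717). The summed TPM of the D cyclins overlapped as well, at 322 to 409 TPM in alveolar and 378 to 410 TPM in tracheal organoids. The make-up of that sum differed, with Ccnd2 at 11.9 to 14.0% in alveolar and 28.8 to 31.5% in tracheal organoids, and Ccnd3 at 29.5 to 35.5% and 17.7 to 19.9%.

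**Figure D2:**
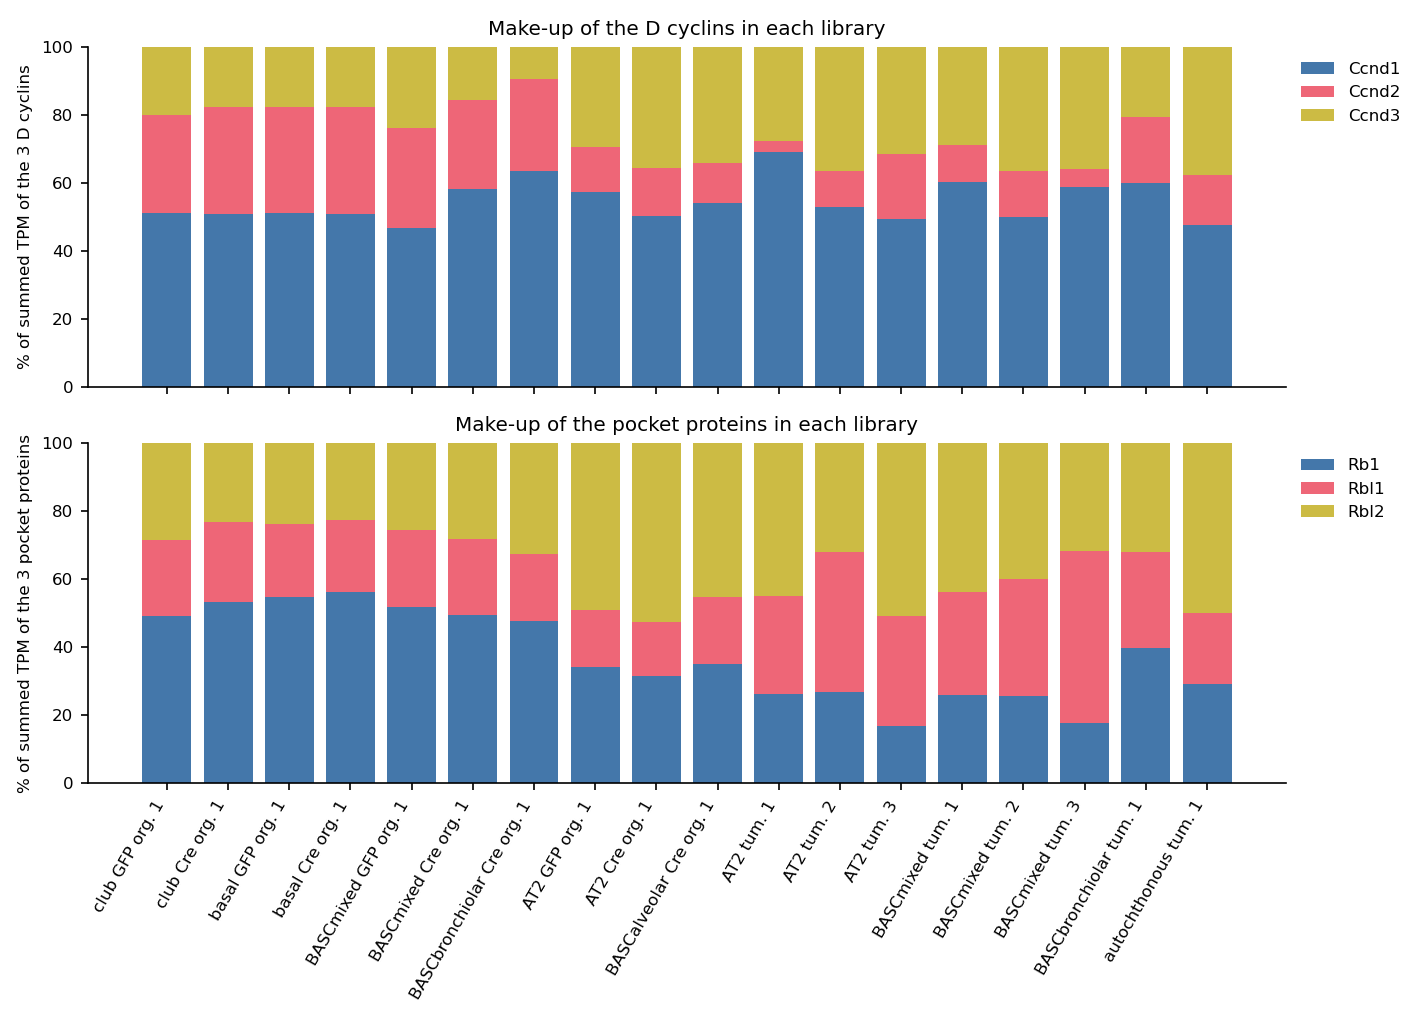
Share of each gene in the summed TPM of the 3 D cyclins (top) and of the 3 pocket protein genes (bottom), as stacked bars in percent for each of the 18 libraries. The 3 alveolar organoids had Ccnd2 at no more than 14.0% and Rbl2 at 45.1% or more, and the tracheal organoids had Ccnd2 at 28.8% or more and Rbl2 at no more than 28.3%.

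The kinase genes were both lower in alveolar organoids, Cdk6 by far the more. Cdk6 measured 22.3, 21.9 and 22.4 CPM in the alveolar organoids against 77.3, 78.7, 77.4 and 87.7 CPM in the tracheal ones. The lowest tracheal value was more than 3 times the highest alveolar value, and the difference was 3.52-fold (log2 fold change -1.82 ± 0.17, edgeR adjusted p = 5.72e-05). Cdk4 differed by less, 1.22-fold, at 144 to 161 against 182 to 199 CPM (log2 fold change -0.28 ± 0.07, edgeR adjusted p = 0.00944).

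The pocket protein genes shifted from Rb1 and Rbl1 to Rbl2, whose product p130 is the family member typical of resting cells. Rbl2 measured 54.4, 59.0 and 52.9 CPM in the alveolar organoids and 36.6, 35.7, 33.4 and 33.5 CPM in the tracheal ones, without overlap (log2 fold change 0.71 ± 0.06, edgeR adjusted p = 4.25e-05). Rbl1, itself a gene that E2F factors activate in dividing cells, was lower, at 18.8 to 23.0 against 28.8 to 33.2 CPM (log2 fold change -0.59 ± 0.13, edgeR adjusted p = 0.00454). Rb1 was lower by the least, at 31.7 to 34.0 against 40.7 to 47.1 CPM (log2 fold change -0.36 ± 0.13, edgeR adjusted p = 0.0415), and this call held in 8 of 19 other settings. Rb1's TPM lay further apart, at 15.6 to 16.1 against 29.2 to 36.8 TPM, since TPM divides by the length that RSEM weights by transcript abundance, and this was greater in alveolar (3369 to 3560 bases) than in tracheal organoids (2107 to 2613 bases). As a share of the pocket protein TPM, Rbl2 stood at 45.1 to 52.6% in alveolar and 22.6 to 28.3% in tracheal organoids.

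Both INK4 genes were higher in alveolar organoids. Cdkn2a measured 53.6, 55.7 and 45.6 CPM in AT2 Ad-GFP, AT2 Ad-Cre and alveolar BASC organoids and 18.8, 29.9, 14.5 and 22.5 CPM in the 4 tracheal ones. The groups did not overlap, and the difference was 2.49-fold (log2 fold change 1.32 ± 0.32, edgeR adjusted p = 0.00723). Cdkn2b, its neighbour, measured 78.7, 93.7 and 104 CPM against 47.5, 50.002, 40.9 and 42.7 CPM, a 2.09-fold difference (log2 fold change 1.06 ± 0.18, edgeR adjusted p = 0.00125).

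Of 28 E2F targets of DNA replication, 19 were lower and none higher in alveolar organoids, with a median log2 fold change of -0.76, led by Msh6 (-0.99, edgeR adjusted p = 2.43e-05), a mismatch repair gene. Of 21 mitotic genes 18 were lower and none higher (median -0.71), led by the centromere genes Cenpe (-1.16) and Cenpf (-1.33). Of 7 genes of the MuvB complex and its partners, 3 were lower, the MuvB gene Rbbp4 (-0.44) and the partner Mybl2 (-0.86) among them. Of 5 genes of cyclin E, cyclin A and CDK2 only Ccna2 passed (-0.68, lower). The genes of the E2F factors and their DP partners were split, 4 of 10 higher and 4 lower, with E2f1 (1.28, edgeR adjusted p = 3.99e-05) and E2f2 (2.30, edgeR adjusted p = 4.70e-05), activating members of the E2F family, higher. Named after their values were seen, the repressors E2f7 (-2.74) and E2f8 (-1.44) were lower. Among 15 known regulators of the INK4 locus, 4 were higher and 5 lower. Bmi1, a Polycomb gene whose product represses the locus, was higher (1.05, edgeR adjusted p = 8.94e-05) in the organoids with more Cdkn2a, and Ets2, whose product activates p16INK4a, was lower (-1.74, edgeR adjusted p = 2.63e-06). None of the other 5 CDK inhibitors (Cdkn1a, Cdkn1b, Cdkn1c, Cdkn2c, Cdkn2d) passed the test, and of 4 cyclin D turnover genes Fbxo4 (0.79) and Gsk3b (0.40) were higher. Of the genes beside the INK4 locus Mtap (0.99) and Elavl2 (6.83) were higher, and Dmrta1 was too low to be tested. Elavl2 was itself very low, at a mean log2 CPM of -1.84 in this fit, so the size of its fold change is uncertain.

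The mixed and bronchiolar BASC organoids, also from distal lung, were compared with the same 3 alveolar libraries and in the same fit, so the 2 lineage comparisons share samples. Of the members, 3 were higher and 4 lower in alveolar organoids, with 24.0% of all 19349 genes higher and 25.7% lower. Cdk6 was again the member furthest apart, at 21.9 to 22.4 CPM in alveolar organoids against 67.6, 87.2 and 121 CPM in mixed Ad-GFP, mixed Ad-Cre and bronchiolar Ad-Cre organoids (log2 fold change -1.99 ± 0.18, edgeR adjusted p = 8.67e-05). The alveolar values lay below all 3 of the others, as they did for Ccnd2 (-1.21, edgeR adjusted p = 0.000927), Cdk4 (-0.37, edgeR adjusted p = 0.0042) and Rbl1 (-0.48, edgeR adjusted p = 0.02). Ccnd3 (0.98, edgeR adjusted p = 0.000663) and Rbl2 (0.66, edgeR adjusted p = 0.000164) lay above them without overlap. Cdkn2b was higher (0.63, edgeR adjusted p = 0.0261) although the groups overlapped. Cdkn2a did not pass (0.37 ± 0.34, edgeR adjusted p = 0.391), since the Ad-Cre mixed and bronchiolar cultures reached 48.8 and 54.8 CPM beside 21.0 CPM in the Ad-GFP culture. Rb1 (-0.18 ± 0.14) and Ccnd1 (-0.25 ± 0.26) did not pass either. Rb1's TPM nevertheless lay apart, at 15.6 to 16.1 TPM in alveolar organoids against 27.1 to 34.4 TPM, and Rb1 passed in 1 of 19 other settings. With Ad-Cre organoids alone, 2 alveolar against 2 others, 4 of the 7 calls were made. The same lists lay lower here, 19 of 28 E2F targets (median -0.69) and 9 of 21 mitotic genes (median -0.53), and 6 of 10 fibroblast markers were higher in the alveolar organoids, with summed levels of 2193 to 4031 against 938 to 2086 TPM, whose part was not tested.

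**Figure D3:**
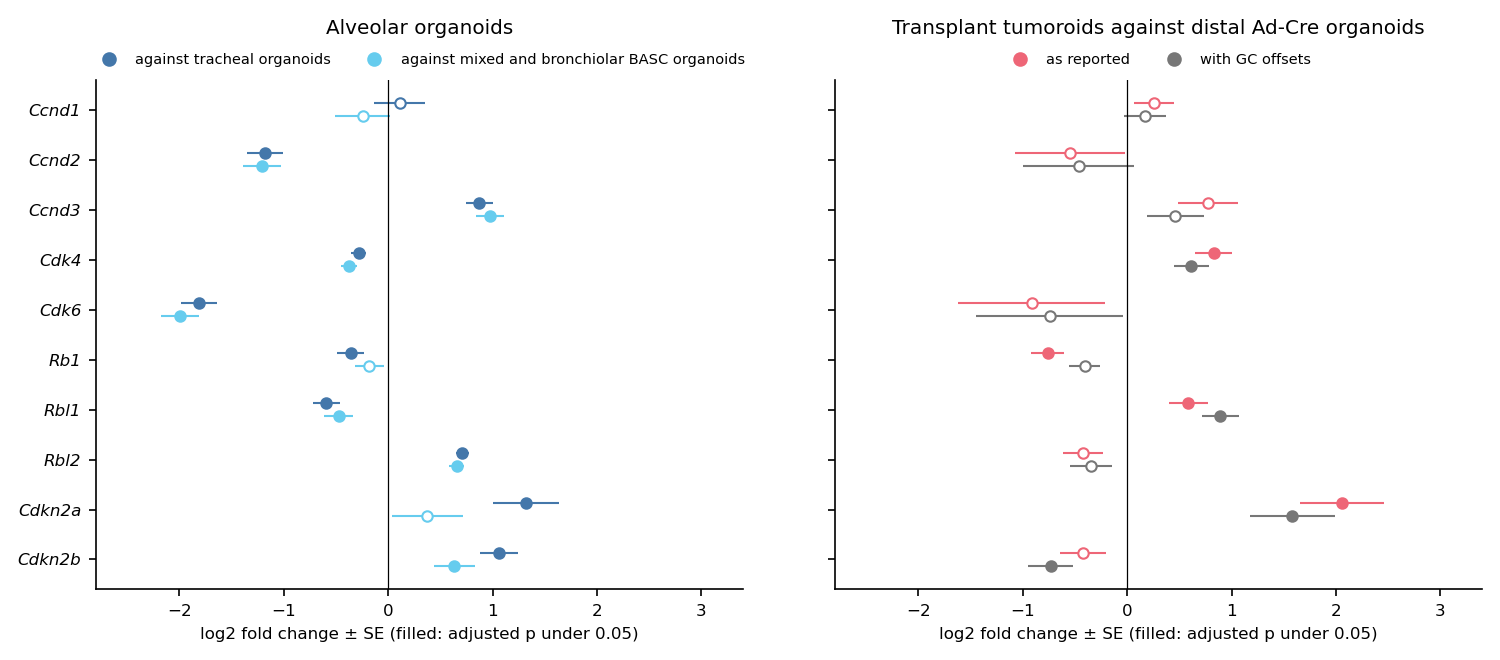
log2 fold change with its standard error for the 10 members (rows), for alveolar organoids against both other organoid groups (left) and for transplant tumoroids against distal Ad-Cre organoids with and without removal of the GC trend (right). Filled points have an edgeR adjusted p below 0.05. Cdk6 was the lowest member on the left, and Cdkn2a the highest on the right under both fits.

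Basal and club organoids, the 2 tracheal sorts with 2 libraries each, were not separated by any member. By edgeR no member and none of the 19349 genes passed (0% higher and 0% lower), 448 genes had an unadjusted p below 0.05, and DESeq2 called 11 genes and no member. The member with the greatest difference was Cdkn2a, at 14.5 and 22.5 CPM in basal and 18.8 and 29.9 CPM in club organoids (log2 fold change -0.41 ± 0.42, edgeR adjusted p = 1). Cdk6 differed by 0.07 ± 0.21 and Ccnd2 by 0.06 ± 0.22 on the log2 scale.

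Virus was the second comparison, and asked whether opening the EGFR cassette in organoids changed the genes of the switch before transplantation. It was made within each of 4 populations, club, basal, AT2 and mixed BASC, with 1 Ad-Cre and 1 Ad-GFP culture each. By edgeR's quasi-likelihood test no member passed and none of the 17749 genes tested did (0% higher and 0% lower), 350 genes had an unadjusted p below 0.05, and DESeq2 called 5 genes and no member. Cdkn2a came closest. With Ad-Cre it measured 29.9, 22.5, 55.7 and 48.8 CPM in club, basal, AT2 and mixed BASC organoids and with Ad-GFP 18.8, 14.5, 53.6 and 21.0 CPM. It was higher with Ad-Cre in 4 of 4 pairs, by 0.67, 0.63, 0.05 and 1.21 on the log2 scale, but its adjusted p was 0.994 by edgeR (log2 fold change 0.63 ± 0.18, unadjusted p = 0.0148). Cdkn2b too was higher in 4 of 4 pairs, by 0.06 to 0.53 (log2 fold change 0.22 ± 0.10, edgeR adjusted p = 0.994). In the mixed BASC pair, where the difference in Cdkn2a was greatest, summed fibroblast markers were also higher with Ad-Cre (2086 against 938 TPM). Lineage markers differed in that pair too. With Ad-Cre, AT2 markers were higher (3441 against 773 TPM), and club (10518 against 12696 TPM), basal (1682 against 2285 TPM) and ciliated markers (184 against 776 TPM) lower. The part of these markers in the difference was not tested. Fibroblast markers stood, with Ad-Cre first, at 963 and 1028 TPM in the club pair. They stood at 968 and 948 TPM in the basal pair and at 3847 and 4031 TPM in the AT2 pair.

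The other members differed less between viruses. Ccnd1 went both ways, lower with Ad-Cre by 0.41 in AT2 and higher by 0.71 in mixed BASC organoids (393 against 521 CPM, and 537 against 328 CPM). Rb1 was lower with Ad-Cre in 3 of 4 pairs, by up to 0.53 on the log2 scale in mixed BASC organoids. Cdk4 differed by at most 0.14 in any pair, and Rbl2 by at most 0.12. None of the 28 E2F targets, 21 mitotic genes or 10 E2F and DP genes passed. The difference of the virus effect between distal and tracheal pairs was tested in the same libraries, and no member passed (edgeR adjusted p from 0.998 to 1.00, and 0 of 17749 genes against 141 by DESeq2), with Cdkn2a differing by -0.03 ± 0.39.

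Transplantation was the third comparison, of 7 transplant tumoroids with the 4 distal Ad-Cre organoids (AT2, mixed, alveolar and bronchiolar BASC). Tumoroids had more Cdkn2a, Cdk4 and Rbl1 and less Rb1. Lineage markers moved with this contrast, since mixed BASC Ad-Cre organoids had a sum of 3441 TPM over 6 AT2 markers and 10518 TPM over 5 club markers, and mixed BASC tumoroids 33044 to 69012 and 216 to 3353 TPM. Values matched by origin thus also cross lineage, and the part of lineage in the differences was not tested. By edgeR's quasi-likelihood test 3 of 10 members were higher and 1 lower at an adjusted p below 0.05, where 10.8% of 16139 genes were higher and 8.77% lower. The groups also differed in platform, and the fold changes of all genes tested depended on GC content, with a median log2 fold change of -0.38 in the lowest of 5 equal GC bins and 0.40 in the highest. In the lineage comparison of alveolar with tracheal organoids, all on 1 platform, the same medians ran from -0.11 to -0.01. Each member is therefore given also with the GC trend of each library removed by offsets, which brought those transplant medians to between -0.04 and -0.01.

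**Figure D4:**
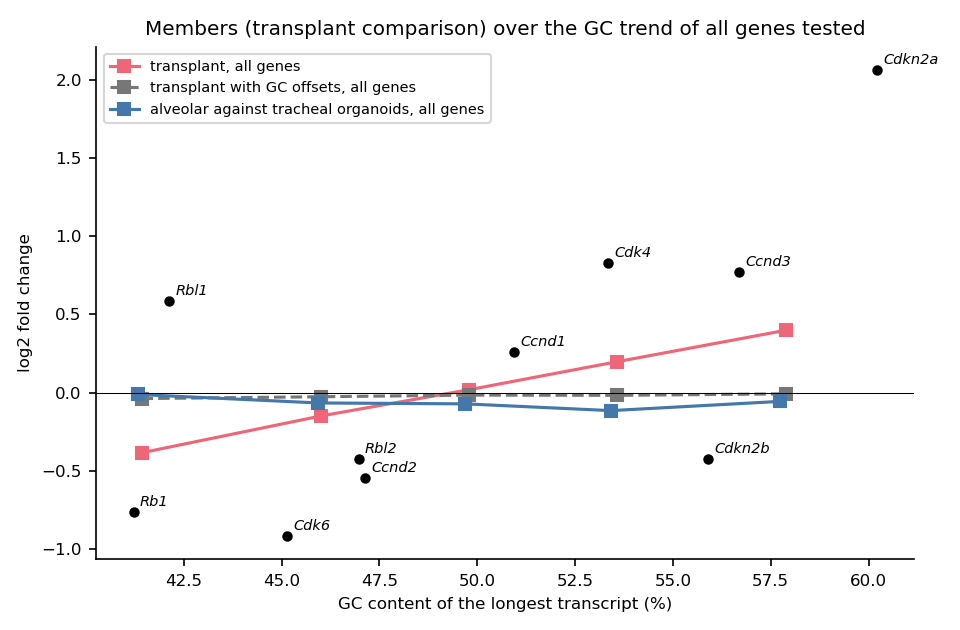
log2 fold change (y axis) against GC content of the longest transcript in percent (x axis). Squares joined by lines are medians over 5 equal bins of all genes tested, for the transplant comparison, the same with GC offsets, and alveolar against tracheal organoids. Black points are the 10 members in the transplant comparison without offsets. The transplant line rose from -0.38 to 0.40, and Rb1 lay at the low end of the GC range (41.2%) and Cdkn2a at the high end (60.2%).

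Cdkn2a was the member that differed most. It measured 59.2, 273 and 322 CPM in AT2 tumoroids 1 to 3, 124, 273 and 210 CPM in mixed BASC tumoroids 1 to 3 and 187 CPM in the bronchiolar tumoroid. The AT2, mixed, alveolar and bronchiolar BASC organoids stood at 55.7, 48.8, 45.6 and 54.8 CPM. Every tumoroid was above every organoid, AT2 tumoroid 1 by little, and the mean difference was 4.17-fold (log2 fold change 2.06 ± 0.40, edgeR adjusted p = 0.00621). With GC offsets it was 1.58 (edgeR adjusted p = 0.0313), and without the 2 tumoroids with most fibroblast signal 1.78 (edgeR adjusted p = 0.0151). With origin as a block (1 organoid for each origin) the value was 2.01 with an edgeR adjusted p of 0.0601. Against the organoid of its own origin it was higher in all 3 AT2, all 3 mixed BASC and the 1 bronchiolar tumoroid, by 1.97, 2.05 and 1.77 on the log2 scale of mean CPM. The 2 tumoroids with most fibroblast signal, AT2 tumoroid 3 (5046 TPM) and mixed BASC tumoroid 2 (2171 TPM), held 322 and 273 CPM of Cdkn2a, and the 2 with least, AT2 tumoroids 2 (204 TPM) and 1 (345 TPM), held 273 and 59.2 CPM. The part of fibroblast signal in the difference was not tested. Cdkn2b, its neighbour, did not pass, at 41.6 to 99.6 CPM in tumoroids and 62.4 to 104 CPM in organoids (log2 fold change -0.42 ± 0.22, edgeR adjusted p = 0.204), and with GC offsets it was lower (-0.73, edgeR adjusted p = 0.0488). The TPM ratio of Cdkn2a to Cdkn2b was 0.719 to 1.28 in distal Ad-Cre organoids and 1.96 to 8.62 in transplant tumoroids.

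Cdkn2a counts pool transcripts for 2 unrelated proteins. In GENCODE vM21 Cdkn2a-201, 852 bases, starts with exon 1-alpha (chr4:89281986-89282192) and encodes p16INK4a, and Cdkn2a-202, 895 bases, starts with exon 1-beta (chr4:89294334-89294653) and encodes p19ARF, which stabilises p53. RSEM's gene length is the mean of the transcript lengths weighted by their estimated abundance, so a longer value means a greater estimated part of the p19ARF form. It measured 883.7, 884.3 and 880.6 bases in AT2 tumoroids 1 to 3, 885.2, 884.0 and 885.0 bases in mixed BASC tumoroids 1 to 3 and 884.9 bases in the bronchiolar one. In distal Ad-Cre organoids it was 872.8, 877.1, 874.6 and 875.6 bases. The groups did not overlap, and the difference was 8.91 bases (883.96 ± 1.59 SD, n = 7, against 875.05 ± 1.81, n = 4, exact two-sided permutation test p = 0.00606, the smallest this design allows). If the authors' annotation held the same pair of transcripts, these lengths place the p19ARF form at 66.5 to 77.2% of Cdkn2a transcripts in transplant tumoroids and 48.4 to 58.4% in distal Ad-Cre organoids. The annotation release behind the files was not given in the sources used here. Of 26111 genes with a single transcript in vM21, 94.6% had exactly the vM21 length in the files, but Cdkn2b beside this locus did not match, at 1393 bases in the files and 1390 bases for its longest vM21 transcript.

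The fragment or read length implied by RSEM's values, which enters its estimate of the transcript mix, also differed between the platforms. It was 63.42 to 63.45 bases in organoids and 49.91 to 49.95 bases in tumoroids. The difference in transcript length and the platform therefore cannot be told apart. The autochthonous tumoroid, a single library, had a weighted length of 875.2 bases at 96.9 CPM. Among organoids the weighted length was 874.5 ± 0.92 bases in the 4 tracheal and 872.6 ± 2.07 bases in the 3 alveolar organoids (exact two-sided permutation test p = 0.171), a design that cannot go below 0.0571. The difference of 1.87 bases was 0.79 without AT2 Ad-GFP and 2.86 without alveolar BASC organoids. The window at the p19ARF start shown above held an E2F-type motif 99 bases before the start, and that at the p16INK4a start held none.

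**Figure D5:**
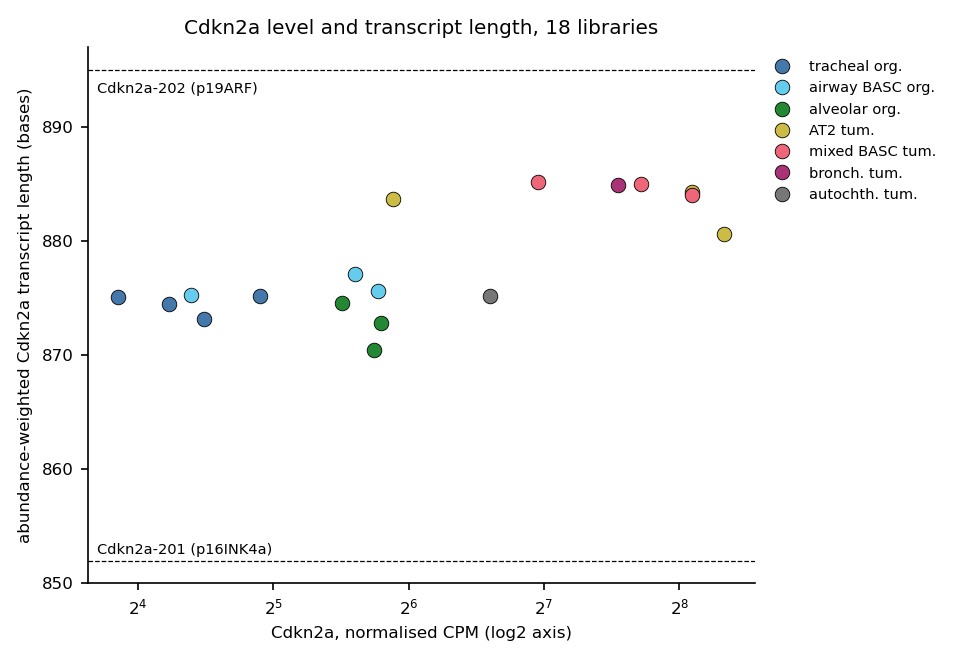
Abundance-weighted Cdkn2a transcript length in bases (y axis, not from 0) against the Cdkn2a level in normalised CPM (x axis, log2) in the 18 libraries, coloured by lineage and stage. Dashed lines mark the lengths of the p16INK4a and p19ARF transcripts in GENCODE vM21. The 7 transplant tumoroids lay at 880.6 bases or more and all organoids and the autochthonous tumoroid at 877.1 bases or less.

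Cdk4 rose in tumoroids. It measured 375, 401 and 246 CPM in AT2, 306, 272 and 260 CPM in mixed BASC and 312 CPM in bronchiolar tumoroids, against 144, 210, 161 and 206 CPM in AT2, mixed, alveolar and bronchiolar BASC organoids. The groups did not overlap, and the difference was 1.78-fold (log2 fold change 0.83 ± 0.18, edgeR adjusted p = 0.00915, with GC offsets 0.61 and 0.0406). With origin as a block the value was 0.80 (edgeR adjusted p = 0.0727). Cdk6 did not pass, at 6.67 to 93.9 CPM (median 24.6) in tumoroids and 21.9 to 121 CPM in organoids (log2 fold change -0.91 ± 0.70, edgeR adjusted p = 0.393). Its direction turned to 0.03 when only AT2 and alveolar BASC organoids and AT2 and mixed BASC tumoroids entered. In that subset the organoids stood at 21.9 and 22.4 CPM and the 6 tumoroids at 6.67 to 41.2 CPM.

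Rb1 was the 1 member lower in tumoroids, a call that was not made with GC offsets. It measured 23.0, 19.6 and 14.3 CPM in AT2, 20.7, 21.4 and 14.0 CPM in mixed BASC and 21.96 CPM in bronchiolar tumoroids, against 31.7, 32.5, 34.0 and 36.4 CPM in AT2, mixed, alveolar and bronchiolar BASC organoids. No values overlapped (1.70-fold, log2 fold change -0.76 ± 0.16, edgeR adjusted p = 0.00788). Genes in the lowest of the 5 GC bins, where Rb1 lies, were themselves lower by a median of 0.38, and with GC offsets Rb1 stood at -0.41 with an edgeR adjusted p of 0.0982. Rbl1, of nearly the same GC content (42.1%), went the other way, at 26.0 to 46.0 CPM against 19.1 to 27.8 CPM (log2 fold change 0.58 ± 0.19, edgeR adjusted p = 0.0478). With GC offsets its difference was larger (0.89, edgeR adjusted p = 0.0107), while the call without them held in 7 of 24 other settings. With origin as a block neither gene passed, Rb1 at -0.71 (edgeR adjusted p = 0.0716) and Rbl1 at 0.57 (edgeR adjusted p = 0.195), nor with block and GC offsets together, Rb1 at -0.39 (edgeR adjusted p = 0.2999) and Rbl1 at 0.85 (edgeR adjusted p = 0.0844). Rbl2 did not pass (-0.43 ± 0.19, edgeR adjusted p = 0.143). In TPM, Rbl1 made up 28.2 to 50.5% of the pocket protein sum in tumoroids and 15.7 to 22.2% in distal Ad-Cre organoids.

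No D cyclin passed. Ccnd1 lay at 493 to 712 CPM (median 609) in tumoroids and 393 to 768 CPM in organoids (log2 fold change 0.26 ± 0.19, edgeR adjusted p = 0.369). Ccnd3 lay at 116 to 234 CPM against 55.5 to 138 CPM (0.77 ± 0.29, edgeR adjusted p = 0.0808), and Ccnd2 at 55.3 to 379 CPM against 148 to 539 CPM (-0.55 ± 0.52, edgeR adjusted p = 0.499). Over 24 other settings Ccnd3 ranged from 0.14 to 0.98 and passed in 1. Ccnd2 spread the most of the D cyclins among tumoroids. Its highest values, 379 CPM in AT2 tumoroid 3 and 361 CPM in the bronchiolar tumoroid, stood beside 55.3 CPM in AT2 tumoroid 1, and AT2 tumoroid 3 was also the library with the most fibroblast signal. Without the 2 tumoroids with most fibroblast signal Ccnd2 stood at -0.90 (edgeR adjusted p = 0.272).

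Downstream of the switch, of 28 E2F targets 25 were higher and none lower (median log2 fold change 1.39), led by Tyms (1.87, edgeR adjusted p = 0.000471) and Mcm5 (1.93, edgeR adjusted p = 0.000986), thymidylate synthase and a subunit of the replicative helicase. Of 21 mitotic genes 19 were higher (median 1.66), led by Plk1 (2.35) and Bub1b (1.90), and of the 5 genes of cyclin E, cyclin A and CDK2, 3 were (Ccna2, 1.53, edgeR adjusted p = 0.00205, and Cdk2, 0.60, edgeR adjusted p = 0.0224, among them). Of 10 E2F and DP genes 3 were higher, E2f8 (1.52) and E2f1 (0.96) among them. Of the 7 genes of MuvB and its partners, the partners Foxm1 (1.99) and Mybl2 (2.13) were higher. No gene of MuvB itself was higher, and 1 was lower. None of the 4 cyclin D turnover genes passed. With GC offsets 25 E2F targets and 20 mitotic genes were higher, and with origin as a block 13 of each. Of the E2F and DP genes only 1 was higher under either of these settings. Of the genes of MuvB and its partners 2 were higher and 0 lower under either. Of the genes of cyclin E, cyclin A and CDK2, 4 were higher with GC offsets and 1 with the block. Of the other CDK inhibitors the INK4 relatives Cdkn2c (p18INK4c, 0.99, edgeR adjusted p = 0.00764) and Cdkn2d (p19INK4d, 1.09, edgeR adjusted p = 0.00869) were higher, while Cdkn1a, Cdkn1b and Cdkn1c did not pass. Of the 15 regulators of the INK4 locus 3 were higher and 2 lower, with Dmtf1, whose product activates the p19ARF promoter, lower (-0.76, edgeR adjusted p = 0.00557) and Pcgf2, a Polycomb gene, higher (0.78, edgeR adjusted p = 0.00622). The neighbour Mtap, the 1 flanking gene that was tested here, did not pass (0.31).

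AT2 and mixed BASC tumoroids, 3 of each on 1 platform, were not separated by any member. By edgeR none of the 15470 genes tested passed (0% higher and 0% lower), 144 had an unadjusted p below 0.05, and DESeq2 called 7 genes and no member. Cdkn2a differed by 0.13 ± 0.64, Cdk6 by -0.45 ± 0.75 and Ccnd2 by 0.27 ± 0.73 on the log2 scale, and all members overlapped. The errors of these 3 were larger than those of Ccnd1 (0.02 ± 0.22), Cdkn2b (0.07 ± 0.24) and Cdk4 (0.30 ± 0.24).

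The bronchiolar tumoroid and the autochthonous tumoroid were single libraries, so their values were set against the range of the 6 AT2 and mixed BASC tumoroids with no test. The bronchiolar tumoroid, at 93.9 CPM of Cdk6, lay above that range (6.67 to 41.2 CPM), and its organoid of origin likewise had the most Cdk6 of all organoids (121 CPM). It lay above the range also in Cdkn2b (99.6 against 41.6 to 64.1 CPM) and below it in Ccnd3 (116 against 129 to 234 CPM). The other 7 members lay inside. For neither library was the share of all genes outside the range computed, so the number of members outside is a description only. The autochthonous tumoroid lay below the range in Ccnd1 (449 CPM), Cdk4 (214 CPM) and Rbl1 (19.2 CPM) and above it in Rbl2 (45.4 CPM) and Cdkn2b (74.5 CPM). In Rbl1 and Rbl2 it lay within the range of the 4 distal Ad-Cre organoids and in Cdk4 just above them (210 CPM at most), while its Rb1 (22.6 CPM) lay among the tumoroids. Organoids and tumoroids differed in platform, and these CPM were not corrected for GC content. The part of platform in these placements was not tested.

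Over the 10 organoids the levels of most members followed the lineages, while Ccnd1 overlapped in both lineage comparisons. The genes most like each member are given as a description, since the libraries share lineage and sort. The highest correlation between 2 members was that of Ccnd2 with Cdk6 (Pearson r = 0.98 of log2 CPM over 10 libraries), and the lowest that of Ccnd3 with Cdk6 (-0.99). Among 10561 genes, those closest to Cdk6 were Rasal2 (r = 0.996), Plcg2 (0.996) and Pitpnc1 (0.995). Those closest to Ccnd2 were Cyfip1, Usp22 and Utp15 (0.99 each), to Ccnd3 Nit1, Pcsk7 and Mfsd13a (0.99 each), and to Rbl2 Acp2 (0.995), Mxd4 (0.993) and Cebpa (0.993). Ccnd1 was closest to Ctps (0.98), Ywhag and Filip1l, Cdk4 to Gmpr2 (0.98), Mrps10 and Gjb2, Rb1 to Cep295 (0.97), Pcm1 and Zfp719, and Rbl1 to Fopnl (0.99), Cep55 and Naa35. Cdkn2a was closest to Rrbp1 (0.98), Ttc23 and St8sia6, and Cdkn2b to Serpinb9 (0.99), Wls and Fem1b.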

How the data were processed

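RNA of 18 cultures was measured by RNA-seq. Per the submitters' processing notes, the authors used Trimmomatic 0.39, STAR 2.6.1d, RSEM 1.3.2 and GRCm38, and the annotation release was not given in the sources used here. The deposited expected counts are RSEM's estimates of reads per gene, not normalised. The deposited TPM values were scaled by the authors to transcript length and to the same total in each library. Gene IDs were matched to symbols by GENCODE vM21 (46091 matched, 512 not). Samples were grouped by the labels for sorting, tissue origin, virus and transplant, and AT2 tumoroids by tissue origin, since their sorting label reads NGFR negative.

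Expected counts were rounded, filtered with filterByExpr, scaled by TMM and tested by edgeR 4.0.16 (quasi-likelihood, Benjamini-Hochberg threshold 0.05, R 4.3.3). Normalised CPM used TMM over all 18 libraries. The virus fit had population as a block. GC offsets removed a lowess trend (span 0.3) from each library. Fits were checked on simulated counts. Alternatives were DESeq2 1.42.0, other scalings and filters, limma 3.58.1 on log2(TPM + 1), subsets, blocks, GC offsets and leaving out each library, and 4 were added after seeing the data (GC offsets for both lineage comparisons and for the alveolar subset, and leaving out the 2 tumoroids with most fibroblast signal). The members and lists were chosen with earlier results of these data known. Besides the members, up to 2 genes with the smallest adjusted p of a list were named (1 such gene is not reported here), and the 3 genes with the highest r to each member, among genes with a mean log2 CPM of at least 3. Near-identical copies share reads by RSEM's estimate. Depths of 15327265 to 97191624 expected counts left the lowest member at 137.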

Additional observations from a re-analysis of the deposited data

Results flagged for a closer look

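Among 55 sets of 4 to 10 libraries, 7 had 1 library far from the others by Dixon's test at the 95% level, which chance reaches in about 1 in 20 sets. In 5 of the 7, 1 AT2 culture stood apart from cultures of other lineages under the same virus, with AT2 Ad-Cre apart in Ccnd2 (182 CPM, gap 0.885 of the range), Ccnd3 (138 CPM, 0.965), Cdk6 (21.9 CPM, 0.922) and Rbl2 (59.0 CPM, 0.853). AT2 Ad-GFP, the other of these 5, was apart in Cdk6 (22.3 CPM, gap 0.891 of the range). Among tracheal organoids basal Ad-Cre was apart in Cdk6 (87.7 CPM, gap 0.854 of the range). Among transplant tumoroids AT2 tumoroid 3, the library with the most fibroblast signal, had the shortest weighted Cdkn2a length (880.6 bases, gap 0.666 of the range).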

How the results depend on the processing

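Of 400 settings of member values past the threshold, 349 stayed past it, 51 did not and 0 changed direction. In both lineage comparisons Cdk6, Ccnd2 and Ccnd3 passed in all 19 settings. Against tracheal organoids the Rb1 call was lost without any 1 of the 7 libraries compared (-0.40 to -0.31, edgeR adjusted p 0.0597 to 0.135) and the Cdk4 call without AT2 Ad-Cre (-0.21, edgeR adjusted p = 0.0584). Against mixed and bronchiolar BASC organoids the Rbl1 call was lost without AT2 Ad-GFP (-0.41) or AT2 Ad-Cre (-0.42), the Cdkn2b call without AT2 Ad-Cre (0.63), mixed BASC Ad-Cre (0.64) or alveolar BASC (0.53), and Ccnd1 passed without mixed BASC Ad-GFP (-0.50). Rb1, not called in the reported fit of that comparison, passed in 1 of 19 other settings. With Ad-Cre organoids alone 4 members passed in place of 7. In the transplant comparison 0 members passed with origin as a block, with or without GC offsets, and 2 in the alveolar subset, with or without them, in place of 4. There Rbl1 was lost without any 1 of the 4 organoids, AT2 tumoroids 2 or 3 or mixed BASC tumoroids 2 or 3 (0.49 to 0.65, edgeR adjusted p 0.0552 to 0.125), and Cdkn2b passed without the bronchiolar tumoroid (-0.55, edgeR adjusted p = 0.0485). The genes called numbered 3167, against 4623 by DESeq2, 1894 with GC offsets and 361 with block and offsets, and the cause was not tested. Calls over all genes with Ad-Cre organoids alone were 7874 (from 11260) and 5696 (from 9618), with fewer libraries.

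Direction turned only for values that did not pass. For alveolar against tracheal organoids Ccnd1 was -0.044 by limma, -0.057 with Ad-Cre alone and -0.0024 to 0.21 leaving out 1 library, and against the other BASC organoids -0.50 to 0.076. For basal against club Ccnd1 was -0.014 by limma, Ccnd3 0.014, Rb1 -0.031 and Rbl1 -0.14 with Ad-Cre alone, and leaving out 1 library gave Ccnd1 -0.0080 to 0.057, Ccnd2 -0.028 to 0.16, Cdk6 -0.016 to 0.16 and Rbl1 -0.076 to 0.14. For virus Rbl2 was -0.060 by limma and -0.024 in trachea alone, Rbl1 0.034 in trachea alone, and leaving out 1 library gave Ccnd1 -0.11 to 0.27, Rbl1 -0.13 to 0.035 and Rbl2 -0.013 to 0.029. In the alveolar subset of the transplant comparison Ccnd2 was 0.18 and Cdk6 0.030, and 0.27 and 0.20 with GC offsets. For AT2 against mixed BASC tumoroids limma, which moved the median of all genes to -0.13, gave Ccnd1 -0.14, Ccnd2 -0.19, Rb1 -0.11, Cdkn2a -0.29 and Cdkn2b -0.070. Leaving out 1 tumoroid gave Ccnd1 -0.090 to 0.15, Ccnd2 -0.62 to 0.76, Ccnd3 -0.37 to 0.058, Rb1 -0.15 to 0.19, Rbl1 -0.27 to 0.17, Rbl2 -0.17 to 0.19, Cdkn2a -0.27 to 0.59 and Cdkn2b -0.093 to 0.20. The tumoroid difference in Cdkn2a length was 8.17 to 9.60 bases leaving out 1 library. It was 22.4 bases with effective length, which also subtracts the fragment or read length of each library.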
